A study of Mus musculus with 8 samples.

Results

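A short hairpin RNA against Eftud2, shRNA1, taken as the weaker of 2 such hairpins, was compared with a non-targeting hairpin, nt-shRNA, by RNA sequencing of mouse embryonic stem cells (mESCs). The members were the 5 libraries whose columns of the deposited count table carry the names of these hairpins, 3 with shRNA1 and 2 with nt-shRNA, of 8 libraries in all, and the genes described are the 17445 of 55385 that passed a filter on low counts. Genes of glycolysis, sterol synthesis and the p53 response were set aside, and the strongest single genes, gene lists, gene families and RNA classes outside them are described. All libraries came from R1 cells, a wild-type mESC line, cultured in N2B27 medium with 2 kinase inhibitors (2i) and leukaemia inhibitory factor, given lentivirus over 2 days and then puromycin over 3 days, so the controls shared the virus and the drug. The other 3 libraries carried shRNA2, the other Eftud2 hairpin, and share the same controls. shRNA1 is directed at the 3′ untranslated region of Eftud2 and shRNA2 at its coding sequence, and each hairpin is a single sequence in a single cell line, so effects of a hairpin on transcripts other than its target were not separated from those on Eftud2.

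Eftud2 encodes a GTPase of the U5 small nuclear ribonucleoprotein, a core particle of the spliceosome that removes introns from nearly all protein-coding transcripts. mESCs in 2i medium hold a naive pluripotent state, and at any time a small fraction of such cells switches on genes of the two-cell embryo, among them the Zscan4 cluster, the Usp17l deubiquitinases and the transcription factor Dux. Growing stem cells also spend much of their RNA on ribosomal proteins, and amino acid shortage or unfolded proteins raise a set of genes through the translation-controlled activator ATF4.

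Eftud2 itself (chr11:102838473-102880985, GRCm38, minus strand) stood at 262 and 256 CPM with nt-shRNA and 232, 229 and 225 CPM with shRNA1, where CPM is a gene's count relative to the library's TMM-scaled total, as edgeR's cpm function gives it. Its 3 shRNA1 libraries lay below both controls, with a log2 fold change of -0.18 ± 0.07 (standard error, as for every ± below) that missed the threshold of edgeR's quasi-likelihood test (adjusted p = 0.051). With shRNA2 the change was -0.29, and the difference between the hairpins, shRNA2 minus shRNA1 here and below, was -0.11 ± 0.06, adjusted p = 0.16. The shRNA1 change was called under 5 of the alternatives, among them the replicate block (-0.21, adjusted p = 0.021), so the call on the target's transcript in these counts depends on the fit. The authors also reported lower Eftud2 RNA by quantitative PCR and lower EFTUD2 protein by western blot with this hairpin, measurements not examined here.

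The libraries held between 19569525 and 29871048 counted fragments. The 2 controls differed from each other more, relative to counting noise, than any 2 shRNA1 libraries (chi-square per gene 12.02 against 3.12 to 8.33). The controls were also the deepest libraries, and for the same spread between cultures this value rises with depth. The stem cell identity of the samples was visible in all 17 core pluripotency genes passing the filter, with a summed level of 4940 to 5155 CPM with nt-shRNA and 5316 to 5470 CPM with shRNA1. Of the marker lists for other cell types, 7 of 16 fibroblast genes were tested, and their summed level of 2072 to 2075 CPM with nt-shRNA and 1591 to 1681 CPM with shRNA1 was mostly Fn1, while Col3a1, Dcn, Lum and Postn did not pass the filter. Primitive endoderm markers (12 of 17 tested) summed to 861 to 868 CPM with nt-shRNA and 652 to 763 CPM with shRNA1, trophoblast markers (14 of 18) to 391.9 to 399.6 and 307 to 346 CPM, neural markers (13 of 20) to 254 to 265 and 173 to 193 CPM, and mesoderm markers (13 of 16) to 47.4 to 48.4 and 49.2 to 52.7 CPM. Of the neural markers 3 were called higher and 3 lower (median log2 fold change 0.03). The most abundant of them, Stmn2, had a mean of 87.6 CPM with nt-shRNA and 46.2 CPM with shRNA1. The part of the lower sums of these lists in the results below was not tested.

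Of the 17445 genes, 2407 (13.8%) were higher and 2981 (17.1%) lower with shRNA1 at a Benjamini-Hochberg adjusted p under 0.05, and the median log2 fold change of all genes was -0.01. Past 2-fold the order turned, with 665 genes (3.81%) higher and 202 (1.16%) lower. The counts of genes called in a list, family or annotation class were read against these shares of 13.8% and 17.1%, and a share near them is no result about the class. Other settings and left-out libraries called more or fewer genes in all. A list's count under them is to be read against the total of that setting, since a smaller count can go with fewer calls in all. The groups did not overlap, with every shRNA1 library above both controls, for 26.6% of genes, and did not overlap in the other direction for 30.2%. The filter kept a gene at 0.455 CPM in 2 of the 8 libraries. In 1189 genes both controls were under that level, so these genes passed through hairpin libraries alone, and the 326 of them called higher owe part of their separation to the filter. Of the other 16256 genes 2081 were higher and 2981 lower. The counts past 2-fold, and those under 1 CPM given next, were not separated from the 1189 genes. The direction of the calls moved with the level of a gene, as the plot of fold change against level shows. Among the 3187 genes under 1 CPM, 372 were higher and 96 lower, and among the 2402 genes at 100 CPM or more, 301 were higher and 743 lower. Scaled by library size alone, 4101 genes were higher and 1713 lower, with the median of all genes at 0.11, so the split between directions depends on the scaling. Without nt-shRNA replicate 1 the counts were 1239 higher and 1709 lower, and without nt-shRNA replicate 2 they were 1529 and 2050.

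**Figure D1:**
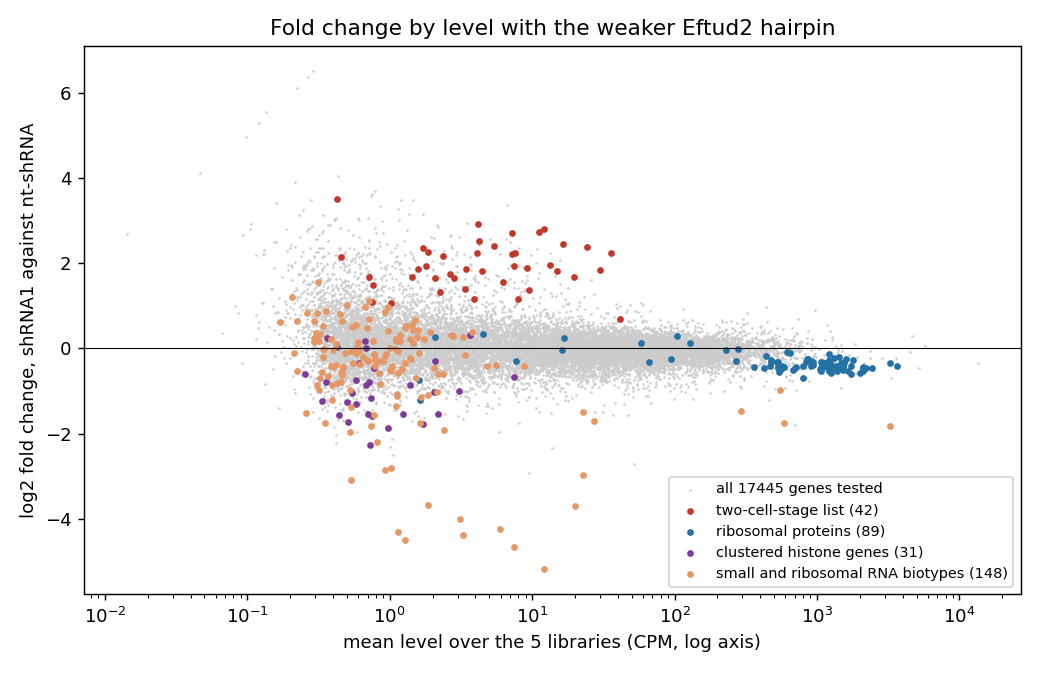
Log2 fold change of shRNA1 against nt-shRNA (vertical axis) against the mean level over the 5 libraries in CPM (horizontal log axis), with a point for each of the 17445 genes. The two-cell-stage genes lie above 0, the ribosomal proteins at high level mostly below it, and the small and ribosomal RNA biotypes reach the lowest values.

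The 12 higher genes with the smallest p-values were Gm8994, Zscan4c, Gm5662, Gm2016, Gm8300, Fam124a, Scd3, Neto2, Gm8038, Spesp1, Gm12183 and Gm5580. Scd3, a stearoyl-CoA desaturase, stood at 6.67 and 5.75 CPM with nt-shRNA and 20.2, 21.2 and 19.2 CPM with shRNA1 (log2 fold change 1.70 ± 0.12, adjusted p = 1.4e-08). Neto2, an accessory subunit of kainate receptors, stood at 4.20 and 4.04 CPM with nt-shRNA and 20.2, 22.5 and 15.6 CPM with shRNA1 (log2 fold change 2.23 ± 0.15, adjusted p = 1.4e-08). In both genes the lowest shRNA1 library was more than 2 times the higher control. Spesp1, a sperm equatorial segment protein, rose by 2.35 ± 0.16 (adjusted p = 1.8e-08) and Fam124a by 2.51 ± 0.17 (adjusted p = 1.4e-08) on the log2 scale, while Gm8038 (2.34 ± 0.16, adjusted p = 1.7e-08) and Gm12183 (2.00 ± 0.14, adjusted p = 1.9e-08) are processed pseudogenes.

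Among genes with a mean of at least 1 CPM, the largest fold was that of Gm38258, a lincRNA (chr3:30552697-30564243), at 0.187 and 0.209 CPM with nt-shRNA and 2.39, 2.62 and 1.93 CPM with shRNA1 (log2 fold change 3.49 ± 0.33, adjusted p = 4e-07). Neurod1, a proneural transcription factor, stood at 0.262 and 0.0697 CPM with nt-shRNA and 2.08, 1.83 and 1.75 CPM with shRNA1 (log2 fold change 3.49 ± 0.50, adjusted p = 4.1e-05), with control values that rest on few counts. In both genes the controls lay under the 0.455 CPM of the filter, which the genes passed through hairpin libraries alone, so the distance between their groups is partly set by the filter. Gm49089 (3.36 ± 0.29, adjusted p = 1.4e-07) and the lincRNA Gm33466 (3.27 ± 0.35, adjusted p = 1.8e-06) were also among the 5 largest rises. The controls of Gm33466 lay under the filter's 0.455 CPM too, so the distance between its groups is also partly set by the filter.

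The 12 lower genes with the smallest p-values were Acss1, Tfrc, Slc35f2, Apela, Gpc3, Gadd45g, Fads2, Cd68, Atp1b2, Usp28, Fads1 and Aire. Tfrc, the transferrin receptor through which cells take up iron (chr16:32608920-32632794), stood at 644 and 748 CPM with nt-shRNA and 331, 269.8 and 296 CPM with shRNA1 (log2 fold change -1.22 ± 0.10, adjusted p = 6.3e-08). Acss1, the mitochondrial acetyl-CoA synthetase, stood at 63.4 and 65.2 CPM with nt-shRNA and 30.9, 29.0 and 31.1 CPM with shRNA1 (log2 fold change -1.08 ± 0.08, adjusted p = 3e-08). Gadd45g, a growth arrest and DNA damage gene, stood at 25.9 and 14.2 CPM with nt-shRNA and 1.89, 1.88 and 3.85 CPM with shRNA1 (log2 fold change -2.93 ± 0.24, adjusted p = 1.1e-07). The 3 genes were lower in every shRNA1 library than in both controls, and the controls of Gadd45g differed from each other, its value without nt-shRNA replicate 1 being -2.44 ± 0.24, adjusted p = 2.5e-06. Gpc3, a cell-surface glypican, fell by 1.13 (adjusted p = 7.8e-08), Apela, an embryonic peptide hormone, fell by 0.93 (adjusted p = 7.8e-08) and Aire, a transcriptional regulator best known from the thymus, fell by 1.29 on the log2 scale (adjusted p = 2.2e-07).

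Of the gene lists described, that of the two-cell stage had the largest median change. Of its 51 genes 42 passed the filter, 41 were higher and 0 lower, against 13.8% and 17.1% of all genes, and 40 were past 2-fold. Their median log2 fold change was 1.87 (quartiles 1.64 and 2.25) against -0.01 for all genes. Both controls were under the filter's 0.455 CPM for 4 of the 42, and of the other 38 genes 37 were higher. The count stayed between 37 and 42 over the alternative settings and left-out libraries. Many of these genes are near-identical copies in tandem clusters, and fragments that aligned to several copies were left out of the counts, so a single copy's level is uncertain and copies of a cluster are not independent. A larger share of cells in the two-cell-like state and more RNA in each such cell cannot be told apart in bulk libraries.

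The Zscan4 genes, whose products act at telomeres, share almost the same sequence around their RefSeq starts, shown here because it illustrates how alike the copies are. Windows from 250 bases before to 50 after the start were aligned in pairs, and over the 266 to 300 bases that aligned the pairs were between 95.3% and 99.3% identical. The same 30 bases (capitals) lie in Zscan4b, Zscan4c, Zscan4d and Zscan4f, given once, at their place in Zscan4c, from RefSeq, GRCm38.p6:
Zscan4c (chr7:11005506-11005535, plus strand): GACTGACCTTGGATCTCTGGGCTTAATAGG

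Zscan4c stood at 2.70 and 2.58 CPM with nt-shRNA and 20.3, 20.4 and 14.9 CPM with shRNA1 (log2 fold change 2.80 ± 0.17, adjusted p = 4.8e-09). Zscan4d stood at 2.89 and 2.19 CPM with nt-shRNA and 17.7, 20.6 and 12.8 CPM with shRNA1 (log2 fold change 2.74 ± 0.20, adjusted p = 3.2e-08). For both copies every shRNA1 library exceeded the higher control more than 4 times over, and shRNA1 replicate 3 was the lowest of its group. Zscan4f (2.71 ± 0.24, adjusted p = 1.6e-07) and Zscan4b (2.35 ± 0.27, adjusted p = 3.7e-06) moved alike, as did Zscan4a, annotated as an unprocessed pseudogene (2.22 ± 0.22, adjusted p = 7.5e-07). In the wider family of 18 Zscan zinc finger genes, 11 were higher and 0 lower, or 6 without nt-shRNA replicate 1.

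Gm8994 and Gm5580, which RefSeq names Eif4a3l1 and Eif4a3l2 after the exon junction helicase Eif4a3, were among the most significant genes. Gm8994 (chr6:136327539-136329983) stood at 13.0 and 10.5 CPM with nt-shRNA and 41.9, 46.2 and 38.9 CPM with shRNA1 (log2 fold change 1.85 ± 0.11, adjusted p = 4.8e-09). Gm5580 stood at 5.17 and 4.56 CPM with nt-shRNA and 18.2, 21.5 and 17.1 CPM with shRNA1 (log2 fold change 1.96 ± 0.14, adjusted p = 2.4e-08). The pair rose to about the same extent, with no overlap between groups. Gm5662, Gm2016 and Gm8300, 3 predicted genes of chromosome 12, rose by 2.24 ± 0.14 (adjusted p = 4.8e-09), 2.44 ± 0.15 (adjusted p = 7.3e-09) and 2.37 ± 0.16 (adjusted p = 1.4e-08). The largest fold in the list was that of Tdpoz4 (3.51 ± 0.72, adjusted p = 0.0011). The control values of Tdpoz4 rest on few counts and lay under the filter's 0.455 CPM, so the distance between its groups is partly set by the filter. The smallest called change in the list was that of Zfp809, a zinc finger protein that silences retroviruses (0.68 ± 0.10, adjusted p = 4.1e-05). Only Gm20767 did not pass the test, at 0.262 and 0.592 CPM with nt-shRNA and 1.26, 1.19 and 0.428 CPM with shRNA1 (log2 fold change 1.09 ± 0.48, adjusted p = 0.097). Duxf3, a copy of the double homeobox factor Dux, stood at 0.712 and 0.523 CPM with nt-shRNA and 1.26, 1.43 and 1.21 CPM with shRNA1 (log2 fold change 1.07 ± 0.30, adjusted p = 0.0099), and was not called without nt-shRNA replicate 2 or by DESeq2.

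**Figure D2:**
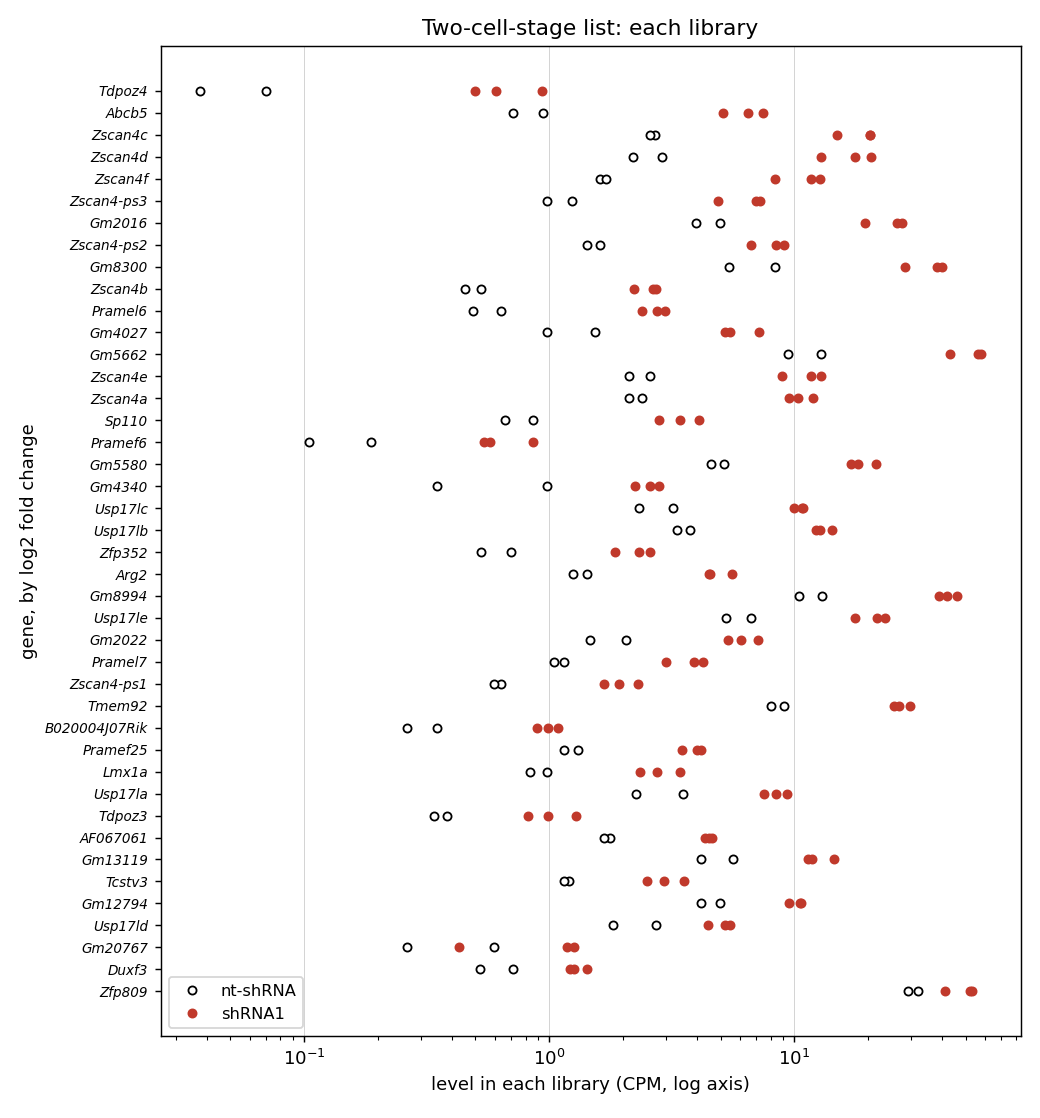
Level in CPM (horizontal log axis) of each of the 42 tested genes of the two-cell-stage list (rows, ordered by log2 fold change), with open points for the 2 nt-shRNA libraries and filled points for the 3 shRNA1 libraries. In every row but that of Gm20767 the shRNA1 points lie to the right of both nt-shRNA points.

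With shRNA2 the median of the two-cell-stage list was 1.45, and in the direct contrast of the hairpins 23 of 42 members were lower with shRNA2 than with shRNA1 and 5 higher, against 18.7% and 16.9% of all genes. Duxf3 changed by 1.07 with shRNA1 and -0.37 with shRNA2 (difference -1.44 ± 0.29, adjusted p = 0.00086). Gm13119 changed by 1.36 and -0.04 (difference -1.40 ± 0.20, adjusted p = 3.6e-05), and Usp17le, a deubiquitinase of the two-cell embryo, by 1.81 and 0.46 (difference -1.35 ± 0.14, adjusted p = 1.6e-06). For these 3 genes the level was higher with shRNA1 than with shRNA2. Tdpoz4 (3.51 and 5.64, difference 2.14 ± 0.30, adjusted p = 3.9e-05) and Pramel7, a preferentially expressed antigen family member (1.73 and 3.24, difference 1.51 ± 0.19, adjusted p = 1.4e-05), went the other way. Both comparisons with nt-shRNA use the same 2 control libraries, while the difference between the hairpins does not depend on their levels.

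Germline genes were mostly higher too. Of 27 tested, 18 were higher and 3 lower, against 13.8% and 17.1% of all genes, with a median of 0.45. Dazl, an RNA-binding protein of germ cells, stood at 217 and 224 CPM with nt-shRNA and 372, 373 and 326 CPM with shRNA1 (log2 fold change 0.70 ± 0.07, adjusted p = 1.2e-06). Slc25a31, the germ cell ADP/ATP carrier, stood at 31.9 and 29.7 CPM with nt-shRNA and 56.2, 59.1 and 52.7 CPM with shRNA1 (log2 fold change 0.86 ± 0.09, adjusted p = 9.7e-07). Neither gene's groups overlapped. Among genes of the piRNA pathway, Mael changed by 0.60 ± 0.11 (adjusted p = 0.00058), Asz1 by 1.04 ± 0.12 (adjusted p = 2.9e-06) and Mov10l1 by 0.53 ± 0.09 (adjusted p = 0.00025), whereas Tdrd12, of the same pathway, was lower (-0.32 ± 0.09, adjusted p = 0.011). Stag3, a meiotic cohesin subunit, was lower too (-0.28 ± 0.07, adjusted p = 0.0055), and with library size scaling or without nt-shRNA replicate 2 no germline gene was called lower. In the contrast of the hairpins 14 of the 27 were lower with shRNA2 than with shRNA1 and 1 higher, against 18.7% and 16.9% of all genes. Mael changed by 0.13 with shRNA2 (difference -0.47 ± 0.10, adjusted p = 0.0017).

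Of 23 naive pluripotency genes 11 (47.8%) were higher, against 13.8% of all genes, and 4 (17.4%) lower, near the 17.1% of all genes, or 8 and 1 without nt-shRNA replicate 1. Fbxo15, an F-box gene used as a stem cell reporter, stood at 558 and 517 CPM with nt-shRNA and 887, 917 and 799 CPM with shRNA1 (log2 fold change 0.69 ± 0.08, adjusted p = 2.3e-06). Klf4, a reprogramming factor, stood at 193 and 177 CPM with nt-shRNA and 275, 310.5 and 286 CPM with shRNA1 (log2 fold change 0.65 ± 0.08, adjusted p = 3.7e-06). Both were higher in every shRNA1 library. Tcl1, a coactivator of the kinase Akt, was lower (-0.69 ± 0.09, adjusted p = 7.6e-06). Dppa3, a maternal factor that protects DNA methylation patterns in the zygote, stood at 35.0 and 36.3 CPM with nt-shRNA and 56.7, 51.5 and 59.2 CPM with shRNA1 (log2 fold change 0.65 ± 0.11, adjusted p = 0.00026), and with shRNA2 it changed by -0.14, so that the hairpins differed by -0.79 ± 0.10, adjusted p = 1.6e-05. Of the core factors, Nanog was higher (0.55 ± 0.06, adjusted p = 3.8e-06), Pou5f1, which encodes Oct4, was lower (-0.35 ± 0.06, adjusted p = 0.00037), and Sox2 had a change of -0.14 ± 0.06 (adjusted p = 0.077). Lin28a, an RNA-binding protein that blocks let-7 maturation, was lower with shRNA1 (-0.60 ± 0.11, adjusted p = 0.00054) and its paralog Lin28b higher (0.78 ± 0.15, adjusted p = 0.00056).

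Most ribosomal protein genes were lower, by similar amounts. Of 54 genes of the large subunit 46 were lower and 1 higher (median -0.41), and of 35 of the small subunit 30 were lower and 0 higher (median -0.40), against 30.9% lower among all genes of at least 100 CPM. Across the alternatives between 40 and 48 large-subunit and between 28 and 30 small-subunit genes were lower. The lists follow gene symbols and so hold a few paralogs outside the common ribosome. These genes have many processed pseudogenes, and fragments shared with a pseudogene were not counted.

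Rpl27a (chr7:109519147-109522367) stood at 1304 and 1312 CPM with nt-shRNA and 880.0, 850.4 and 965 CPM with shRNA1 (log2 fold change -0.54 ± 0.07, adjusted p = 6.3e-06). Rps18 (chr17:33951999-33956001) stood at 2531 and 2435 CPM with nt-shRNA and 1605, 1524 and 1871 CPM with shRNA1 (log2 fold change -0.58 ± 0.08, adjusted p = 1.5e-05). In both genes shRNA1 replicate 3 was the nearest to the controls and still below them. Rpl39 (-0.55 ± 0.07, adjusted p = 6.8e-06) and Rps3 (-0.44 ± 0.06, adjusted p = 4e-05) were the next in significance. The exception was Rpl10l, a retrogene paralog of Rpl10 known from spermatogenesis, at 94.1 and 90.2 CPM with nt-shRNA and 111, 116 and 112 CPM with shRNA1 (log2 fold change 0.29 ± 0.06, adjusted p = 0.0014). Rplp0, a stalk protein of the large subunit, had a change of -0.14 ± 0.06 (adjusted p = 0.1).

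Transcripts of ribosomal proteins are known to begin with a run of pyrimidines. In the 30 bases centred on the RefSeq start, a run of at least 8 C or T was found in 46.3% of 41 large-subunit and 37.5% of 24 small-subunit genes with a listed promoter, and in 13.9% of 27025 genes in all. The stretches around the starts of Rpl27a and Rps18, with the longest run in capitals, are given because these genes led the group:
Rpl27a (chr7:109519180-109519209, plus strand): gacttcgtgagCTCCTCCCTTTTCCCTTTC
Rps18 (chr17:33955651-33955680, minus strand): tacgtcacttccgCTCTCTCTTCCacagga

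Mitochondrial ribosomal proteins, with such a run in 13.2% of 68 genes, had 11 of 77 (14.3%) lower and 3 (3.90%) higher, both under the 17.1% and 13.8% of all genes, and their median of -0.10 became 0.01 with library size scaling. Without nt-shRNA replicate 1 the counts were 4 lower and 0 higher, and without nt-shRNA replicate 2 or shRNA1 replicate 2 they were 7 and 0. Of the translation elongation factors of the Eef family, 5 of 8 were lower, or 3 without nt-shRNA replicate 1 and 3 with library size scaling. Eef2, which moves the ribosome along the transcript, stood at 6332 and 6033 CPM with nt-shRNA and 4249, 4243 and 5043 CPM with shRNA1 (log2 fold change -0.45 ± 0.07, adjusted p = 9.9e-05). Eef1a1, which delivers aminoacyl-tRNA, changed by -0.35 ± 0.07 (adjusted p = 0.00051). Host genes of small nucleolar RNAs, several of which are known to share the pyrimidine start, had 7 of 20 lower, or 4 without nt-shRNA replicate 1. Zfas1 stood at 169.9 and 167 CPM with nt-shRNA and 118, 114 and 119 CPM with shRNA1 (log2 fold change -0.52 ± 0.07, adjusted p = 2.6e-05), and with shRNA2 it changed by -0.09 (difference between hairpins 0.43 ± 0.07, adjusted p = 7.5e-05). Gas5 changed by -0.41 ± 0.07 (adjusted p = 0.00021) with shRNA1 and -0.07 with shRNA2 (difference 0.33 ± 0.06, adjusted p = 0.00051).

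Targets of ATF4 were lower without an exception in direction among the called genes. Of 40 tested, 30 were lower and 0 higher (median -0.38), and between 21 and 32 were lower across the alternatives, with 21 without nt-shRNA replicate 1. The list's median lay 0.11 above the control mean in nt-shRNA replicate 1 and 0.12 below it in replicate 2, a spread wider than in the ribosomal lists. The sequence TGATGNAAT, the composite element that ATF4 and C/EBP proteins are known to bind, was sought on both strands of the promoters and found in 4 of 33 (12.1%) list genes with a listed promoter, in 1.08% of all 27025 genes and in 0.561% of the 11943 that were tested. All 4 were lower, as were 20 of the 29 without it. Of the matches, found on either strand, 3 are shown in capitals within 30 bases of RefSeq sequence:
Nupr1 (chr7:126625562-126625591, minus strand): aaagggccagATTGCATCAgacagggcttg
Pycr1 (chr11:120643832-120643861, minus strand): gccctgtgtaTGATGCAATgcacaaggctc
Gars (chr6:55037960-55037989, plus strand): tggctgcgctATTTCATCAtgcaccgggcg

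Nupr1, a stress-induced nuclear protein, stood at 81.6 and 66.0 CPM with nt-shRNA and 36.4, 29.9 and 43.3 CPM with shRNA1 (log2 fold change -1.01 ± 0.11, adjusted p = 2e-06). Pycr1, which completes proline synthesis in mitochondria, stood at 67.2 and 62.0 CPM with nt-shRNA and 33.7, 28.0 and 40.0 CPM with shRNA1 (log2 fold change -0.92 ± 0.10, adjusted p = 2e-06). Both were lower in every shRNA1 library than in either control. Ddit3, which encodes the stress factor CHOP, stood at 93.7 and 62.5 CPM with nt-shRNA and 22.7, 19.9 and 35.9 CPM with shRNA1 (log2 fold change -1.56 ± 0.17, adjusted p = 2.5e-06), and its value without nt-shRNA replicate 1 was -1.24 ± 0.19, adjusted p = 0.00016. Atf4 transcripts were themselves lower (-0.65 ± 0.09, adjusted p = 1.6e-05), as were those of Trib3, a pseudokinase target of ATF4 (-0.91 ± 0.13, adjusted p = 3.4e-05). Psat1 of serine synthesis changed by -0.65 ± 0.08 (adjusted p = 9.1e-06).

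Of 37 aminoacyl-tRNA synthetases, which charge tRNAs and several of which are ATF4 targets, 16 were lower and 0 higher, or 10 lower without nt-shRNA replicate 1. Cars, for cysteine, changed by -0.55 ± 0.07 (adjusted p = 7e-06) and Yars, for tyrosine, by -0.58 ± 0.08 (adjusted p = 2e-05). Among 28 endoplasmic reticulum chaperones and unfolded protein response genes, 14 were lower and 2 higher, and none was higher without any 1 of nt-shRNA replicates 1 and 2 and shRNA1 replicates 1 and 2, while 6 were lower without nt-shRNA replicate 1, 9 without shRNA1 replicate 2 and 6 with library size scaling. Herpud1, a degradation component of that compartment, stood at 41.1 and 34.6 CPM with nt-shRNA and 19.2, 18.5 and 25.8 CPM with shRNA1 (log2 fold change -0.83 ± 0.13, adjusted p = 6.8e-05). Pdia6, a disulfide isomerase, changed by -0.42 ± 0.06 (adjusted p = 3.7e-05), and Hspa5, the chaperone BiP, by -0.28 ± 0.07 (adjusted p = 0.0059), a call that was lost without nt-shRNA replicate 1 (-0.20 ± 0.09, adjusted p = 0.13) and with library size scaling.

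**Figure D3:**
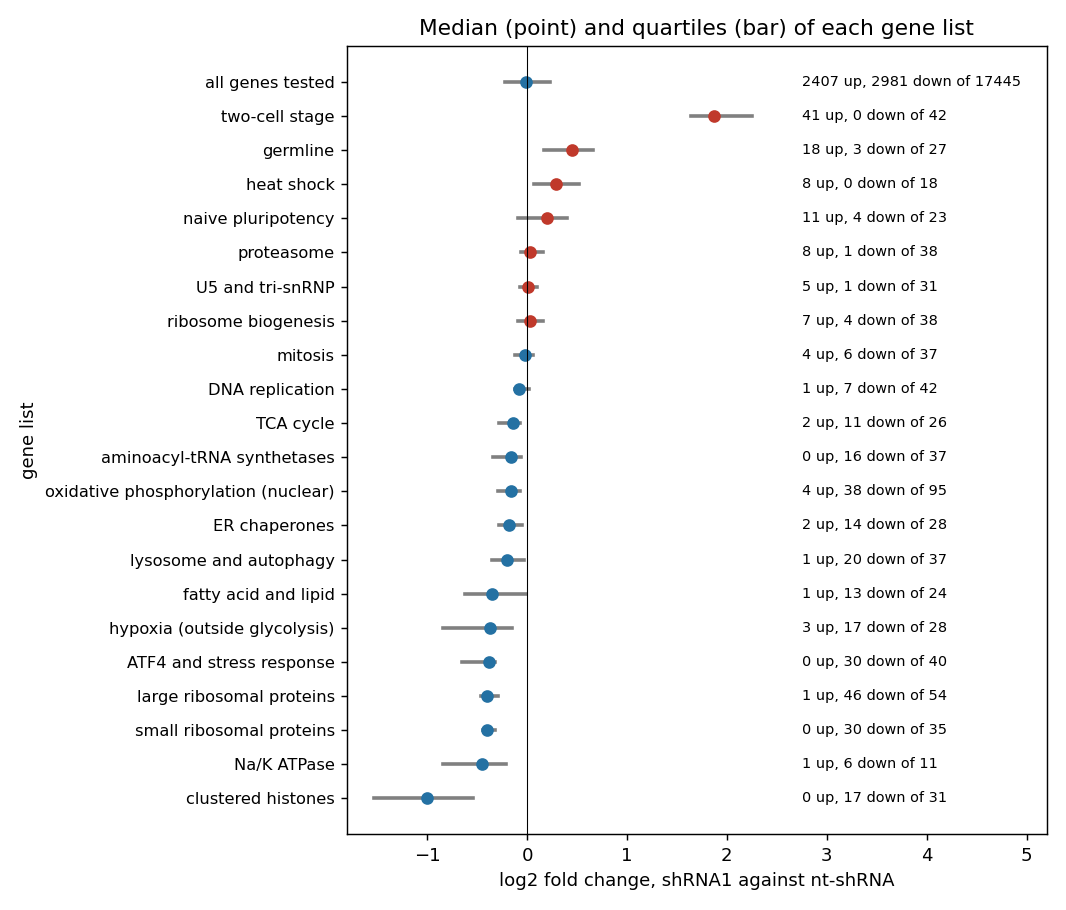
Median (point) and quartiles (bar) of the log2 fold change of shRNA1 against nt-shRNA for 21 gene lists and for all genes, with the numbers of genes called higher (up) and lower (down) at the right. The two-cell-stage list has a median of 1.87, the 2 ribosomal lists -0.41 and -0.40, and the clustered histones -1.01, or -0.62 without nt-shRNA replicate 1.

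Genes induced by low oxygen, counted outside glycolysis, were lower for 17 of 28 and higher for 3 (median -0.37), with 12 to 18 lower across the alternatives. Ndrg1, a hypoxia and differentiation gene, stood at 48.0 and 52.6 CPM with nt-shRNA and 16.5, 18.3 and 24.5 CPM with shRNA1 (log2 fold change -1.34 ± 0.13, adjusted p = 4.8e-07). P4ha1, a collagen prolyl hydroxylase, stood at 121 and 133 CPM with nt-shRNA and 67.8, 64.0 and 76.1 CPM with shRNA1 (log2 fold change -0.87 ± 0.09, adjusted p = 5.8e-07). Vegfa, the vascular growth factor, changed by -1.02 ± 0.11 (adjusted p = 1.1e-06), Bnip3, a mitophagy receptor, by -1.28 ± 0.15 (adjusted p = 4e-06) and Car9, a carbonic anhydrase, by -1.04 ± 0.21 (adjusted p = 0.00087). Each of these 5 genes fell further with shRNA2, the differences between the hairpins running from -0.69 to -1.59 with adjusted p of at most 0.0013. Ak4, a mitochondrial adenylate kinase, went the other way, at 544 and 531 CPM with nt-shRNA and 770.1, 768 and 707 CPM with shRNA1 (log2 fold change 0.48 ± 0.07, adjusted p = 7.8e-05). The core of the hypoxia response element, ACGTG, sought on both strands, was present in the promoters of 17 of 21 list genes (81.0%), of 21.8% of all genes and of 28.3% of those tested, and 10 of these 17 were lower and 3 higher, against 1 and 0 of the 4 without it.

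Lysosomal and autophagy genes were lower for 20 of 37 and higher for 1 (median -0.20, or -0.08 with library size scaling), and the lower count was 11 without nt-shRNA replicate 1 and 12 with library size scaling. Npc2, a cholesterol carrier of the lysosome, stood at 344 and 334 CPM with nt-shRNA and 232, 221 and 237 CPM with shRNA1 (log2 fold change -0.56 ± 0.06, adjusted p = 9.6e-07). Its groups were apart. Gabarapl2, an autophagosome protein, was higher, at 179 and 169 CPM with nt-shRNA and 276, 275 and 251 CPM with shRNA1 (log2 fold change 0.62 ± 0.07, adjusted p = 1.4e-06). The palindrome TCACGTGA, which contains ACGTG and is the core of the element bound by the lysosomal regulators TFEB and TFE3, was found in 5 of 30 promoters (16.7%), in 1.12% of all genes and in 2.0% of the 11943 tested genes with a listed promoter. Of these 5 genes 4 were lower, or 3 without nt-shRNA replicate 1, as were 12 of the 25 without it. The matches in the 4 lower genes are given in capitals from RefSeq, of which Ctsa, a protective carboxypeptidase, and Gla, an alpha-galactosidase, have a second match not shown:
Ctsa (chr2:164833749-164833778, plus strand): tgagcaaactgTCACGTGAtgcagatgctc
Gla (chrX:134601215-134601244, minus strand): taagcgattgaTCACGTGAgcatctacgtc
Mcoln1 (chr8:3500462-3500491, plus strand): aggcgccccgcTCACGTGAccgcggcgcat
Atp6v0d1 (chr8:105566050-105566079, minus strand): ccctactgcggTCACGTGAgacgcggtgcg
Ctsa changed by -0.54 ± 0.07 (adjusted p = 7.1e-06), Gla by -0.50 ± 0.09 (adjusted p = 0.00019), Mcoln1, a lysosomal calcium channel, by -0.34 ± 0.07 (adjusted p = 0.00094) and Atp6v0d1, a proton pump subunit, by -0.27 ± 0.07 (adjusted p = 0.0071), while Ctsd, the protease cathepsin D and the fifth gene with a match, had -0.03 ± 0.07 (adjusted p = 0.79). Atp6v0d1 was not called without either control library (-0.27 ± 0.09, adjusted p = 0.052 without nt-shRNA replicate 1).

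Genes of fatty acid and lipid synthesis were lower for 13 of 24 and higher for 1 (median -0.35), and none was called higher without either control library. Fads2 and Fads1, the desaturases that make polyunsaturated fatty acids, lie side by side on chromosome 19. Fads2 stood at 150.3 and 154 CPM with nt-shRNA and 81.7, 78.2 and 92.6 CPM with shRNA1 (log2 fold change -0.85 ± 0.07, adjusted p = 1.1e-07) and Fads1 changed by -0.80 ± 0.07 (adjusted p = 2.2e-07). Scd1, the main stearoyl-CoA desaturase, was lower (-0.89 ± 0.10, adjusted p = 4.1e-06) while its neighbour Scd3 was higher. Slc25a1, the mitochondrial citrate carrier, fell by 0.997 on the log2 scale (adjusted p = 9.7e-07). Of 26 genes of the citric acid cycle, 11 were lower and 2 higher, with 6 lower without nt-shRNA replicate 1, none higher without nt-shRNA replicate 2, and 6 lower and 4 higher with library size scaling, and Idh2, the mitochondrial NADP-dependent isocitrate dehydrogenase, changed by -0.71 ± 0.08 (adjusted p = 3.3e-06). Nuclear genes of oxidative phosphorylation were lower for 38 of 95 and higher for 4, with 24 lower and 1 higher without nt-shRNA replicate 1, none higher without nt-shRNA replicate 2 and 23 lower with library size scaling. Among genes at 100 CPM or more 20 of 42 in this list and 10 of 21 of the citric acid cycle were lower, against 30.9% of all genes at that level, and in the oxidative phosphorylation list the largest change was in Ndufa4l2, a hypoxia-induced subunit homologue (-1.51 ± 0.18, adjusted p = 6.5e-06).

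Genes of the sodium pump, which expels sodium in exchange for potassium, were mostly lower. Of 11 subunits and FXYD regulators tested, 6 were lower and 1 higher (median -0.45, or -0.79 without shRNA1 replicate 3 and -0.80 with the replicate block). Atp1b2, a beta subunit, stood at 131 and 134 CPM with nt-shRNA and 65.8, 62.0 and 71.5 CPM with shRNA1 (log2 fold change -0.99 ± 0.09, adjusted p = 1.4e-07). Fxyd6, a regulator of the pump, stood at 405 and 416 CPM with nt-shRNA and 206, 197 and 238 CPM with shRNA1 (log2 fold change -0.94 ± 0.10, adjusted p = 8.3e-07). Both were far below the controls in each shRNA1 library. Atp1b3, another beta subunit, was higher (0.30 ± 0.06, adjusted p = 0.0018).

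Heat shock genes were higher for 8 of 18 and lower for 0 (median 0.29), and between 8 and 14, the last with library size scaling, were higher across the alternatives. Hspa1b, an inducible Hsp70 (chr17:34956436-34959238), stood at 10.4 and 9.20 CPM with nt-shRNA and 19.9, 22.0 and 23.6 CPM with shRNA1 (log2 fold change 1.16 ± 0.11, adjusted p = 4.3e-07). Its near-identical neighbour Hspa1a changed by 1.00 ± 0.19 (adjusted p = 0.00068), and the split of fragments between the copies is uncertain. Dnaja1, a cochaperone of Hsp70, stood at 122 and 124 CPM with nt-shRNA and 196, 193 and 155 CPM with shRNA1 (log2 fold change 0.56 ± 0.08, adjusted p = 4.8e-05). Hsph1, an Hsp110 nucleotide exchange factor, changed by 0.61 ± 0.10 (adjusted p = 0.00012) and Hspa8, the constitutive Hsp70, by 0.41 ± 0.09 (adjusted p = 0.0019). GAANNTTC, a pair of the inverted repeats bound by heat shock factors, was found in 9 of 13 promoters (69.2%), in 9.04% of all genes and in 6.96% of those tested. It reads the same on both strands. Of these 9 genes 4 were higher, against 1 of the 4 without it. The heat shock element of the 3 leading genes and that between Hspd1 and Hspe1, which encode the mitochondrial chaperonins from a shared promoter, are given from RefSeq with the repeats in capitals:
Hspa1b (chr17:34959324-34959353, minus strand): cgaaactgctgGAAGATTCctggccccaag
Dnaja1 (chr4:40722333-40722362, plus strand): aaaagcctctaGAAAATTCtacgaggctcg
Hsph1 (chr5:149636277-149636306, minus strand): tgcagattctgGAAAGTTCtcctcagtagg
Hspe1 (chr1:55088053-55088082, plus strand): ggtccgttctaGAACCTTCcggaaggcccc
Hspd1 (0.13 ± 0.07, adjusted p = 0.19) and Hspe1 (-0.08 ± 0.07, adjusted p = 0.39) did not pass the test despite the match.

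**Figure D4:**
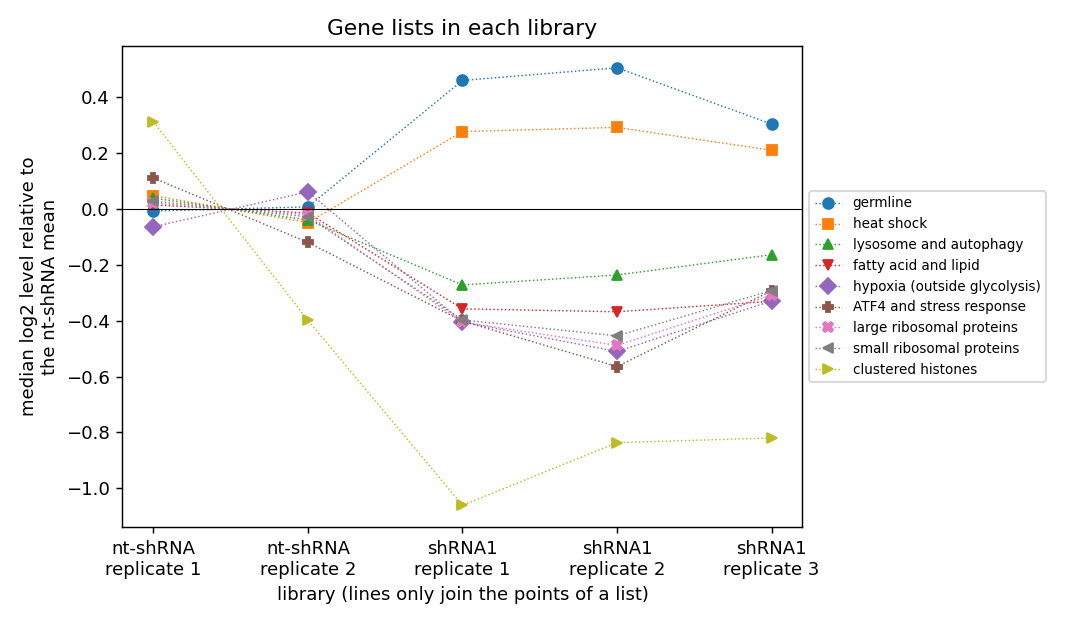
Median log2 level of the members of 9 gene lists in each library, relative to the mean of the 2 nt-shRNA libraries (vertical axis), with the libraries along the horizontal axis. The shRNA1 libraries lie on one side of both controls for each list, and the clustered histones differ most between the controls.

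Among splicing factor genes, of 31 proteins of the U5 and tri-snRNP particles 5 were higher and 1 lower, against 13.8% and 17.1% of all genes, and their median of 0.01 changed sign between alternatives. The higher count was 2 without any 1 of nt-shRNA replicates 1 and 2 and shRNA1 replicates 1 and 2, and 12 with library size scaling. Prpf3, of the U4/U6 particle, stood at 79.7 and 72.4 CPM with nt-shRNA and 111, 105 and 104 CPM with shRNA1 (log2 fold change 0.49 ± 0.09, adjusted p = 0.0004). Of 22 SR proteins and their kinases 8 (36.4%) were higher and 4 (18.2%, near the share of all genes) lower, and the higher count was 2 without nt-shRNA replicate 1 and 3 without nt-shRNA replicate 2, shRNA1 replicate 1 or shRNA1 replicate 2. Son, a scaffold of nuclear speckles, stood at 212 and 226 CPM with nt-shRNA and 404, 404 and 364 CPM with shRNA1 (log2 fold change 0.84 ± 0.07, adjusted p = 1.5e-07). Clk1, a kinase of SR proteins with a known retained-intron transcript, stood at 168 and 155 CPM with nt-shRNA and 107, 102 and 104 CPM with shRNA1 (log2 fold change -0.63 ± 0.06, adjusted p = 5.8e-07). Every shRNA1 library was above both controls for Son and below both for Clk1. Exonic fragments do not tell spliced from unspliced or truncated isoforms.

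Other lists of the cell cycle and of RNA were DNA replication (1 of 42 higher, 7 lower), mitosis (4 of 37 higher, 6 lower), nonsense-mediated decay with the exon junction complex (1 of 18 higher, 2 lower) and ribosome biogenesis (7 of 38 higher, 4 lower), against 13.8% and 17.1% of all genes. With library size scaling 18 ribosome biogenesis, 10 mitosis, 7 DNA replication and 7 decay genes were called higher. That scaling called 4101 of all 17445 genes higher, so these counts moved along with those of all genes. The higher count of ribosome biogenesis also fell without nt-shRNA replicate 2. No DNA replication, mitosis or decay gene was called higher and 1 decay gene was lower without nt-shRNA replicate 1, and no decay gene was lower without nt-shRNA replicate 2 or shRNA1 replicate 2. Without shRNA1 replicate 1 the mitosis list had 1 higher. Dkc1, the pseudouridine synthase dyskerin of the last list, was lower, at 416 and 389 CPM with nt-shRNA and 261, 231 and 251 CPM with shRNA1 (log2 fold change -0.70 ± 0.06, adjusted p = 3.4e-07). The proteasome had 8 of 38 genes higher and 1 lower (4 higher without nt-shRNA replicate 2, 5 without shRNA1 replicate 1 or 2, 18 with library size scaling), led by the ATPase subunits Psmc1 (0.30 ± 0.06, adjusted p = 0.0011) and Psmc3 (0.29 ± 0.06, adjusted p = 0.0024).

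Among signalling genes, Dusp4, a phosphatase that restrains ERK, stood at 14.2 and 14.1 CPM with nt-shRNA and 4.96, 6.32 and 7.84 CPM with shRNA1 (log2 fold change -1.14 ± 0.15, adjusted p = 2.1e-05). Spry2, a feedback inhibitor of the same pathway, stood at 34.6 and 35.3 CPM with nt-shRNA and 53.7, 60.7 and 49.9 CPM with shRNA1 (log2 fold change 0.64 ± 0.09, adjusted p = 2.3e-05). The pair moved apart although both are known targets of ERK, and of 24 such feedback and immediate-early genes 4 were higher and 5 lower, shares near the 13.8% and 17.1% of all genes. Without nt-shRNA replicate 1 these counts were 2 and 3, and without shRNA1 replicate 2 they were 2 and 3. Of 20 genes of the LIF and BMP pathways 8 were lower and 4 higher, against 17.1% and 13.8% of all genes, but 3 and 2 without nt-shRNA replicate 1. Lifr, the LIF receptor, was lower (-0.45 ± 0.06, adjusted p = 1.4e-05), as was its partner Il6st (-0.36 ± 0.07, adjusted p = 0.00054), while Smad7, an inhibitor of TGF-beta signalling, was higher (0.36 ± 0.07, adjusted p = 0.00089). Fzd7, a WNT receptor, was lower (-0.78 ± 0.09, adjusted p = 2.5e-06).

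Of 20 DNA methylation genes 6 were higher and 3 lower (median 0.06), against 13.8% and 17.1% of all genes. The higher count was 9 with library size scaling and fell without nt-shRNA replicate 1. Dnmt3b, a de novo enzyme, stood at 40.4 and 36.7 CPM with nt-shRNA and 56.0, 66.3 and 62.3 CPM with shRNA1 (log2 fold change 0.67 ± 0.09, adjusted p = 1.8e-05). Dnmt3l, its catalytically inactive cofactor, stood at 231 and 215 CPM with nt-shRNA and 137, 150.3 and 171 CPM with shRNA1 (log2 fold change -0.54 ± 0.10, adjusted p = 0.00036). Neither gene's groups overlapped. Among 38 imprinted genes 6 were higher and 4 lower, or 2 and 4 without nt-shRNA replicate 1 and 3 higher without shRNA1 replicate 2, against 13.8% and 17.1% of all genes. With gene length offsets and the replicate block 9 imprinted genes were lower. The maternally expressed Meg3 was lower (-0.49 ± 0.09, adjusted p = 0.00029) and the paternally expressed Mest higher (0.42 ± 0.09, adjusted p = 0.0011).

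Matrix and adhesion genes were lower for 15 of 39 and higher for 3 (median -0.17, or -0.05 with library size scaling), and 1 was higher without nt-shRNA replicate 1. Lamb2, a laminin chain of basement membranes, stood at 129.7 and 119 CPM with nt-shRNA and 59.9, 66.4 and 78.3 CPM with shRNA1 (log2 fold change -0.87 ± 0.09, adjusted p = 1.7e-06). Epcam, an epithelial and stem cell adhesion molecule, stood at 195 and 203 CPM with nt-shRNA and 131, 131 and 137 CPM with shRNA1 (log2 fold change -0.58 ± 0.07, adjusted p = 4.3e-06). In both the groups were separate. Of 26 interferon-stimulated genes 7 (26.9%) were higher and 7 (26.9%) lower, against 13.8% and 17.1% of all genes. Fewer were called either way without nt-shRNA replicate 1, and 4 and 4 were called without shRNA1 replicate 2. The leading changes were those of Ifitm1, a membrane protein that blocks virus entry (-0.73 ± 0.09, adjusted p = 4.9e-06), and of Xaf1 (0.44 ± 0.08, adjusted p = 0.00057). With library size scaling 10 interferon-stimulated genes were higher and 4 lower. Of 24 genes of serine and one-carbon metabolism 11 were lower and 2 higher, and the higher count was 6 without shRNA1 replicate 3, 5 with only the groups compared and 7 with library size scaling. Gldc, of the glycine cleavage system, changed by -0.42 ± 0.06 (adjusted p = 4.5e-05), and those called higher with all libraries were Tdh, the threonine dehydrogenase on which mESCs depend (0.35 ± 0.06, adjusted p = 0.00039), and Mat2a, which makes S-adenosylmethionine (0.43 ± 0.09, adjusted p = 0.0013).

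Gene families were formed from symbols with a shared stem, which gave 463 families of at least 5 tested genes. Of these, 44 had at least 50% of their members called in 1 direction, 13 higher and 31 lower. Of all genes 13.8% were called higher and 17.1% lower. The families described were taken from the 44, so their high shares of called members follow from that choice. The glutathione S-transferases of the mu class, which conjugate glutathione to toxic compounds, had 5 of 7 lower (median -0.62). Gstm3 stood at 17.1 and 16.6 CPM with nt-shRNA and 5.86, 6.32 and 6.95 CPM with shRNA1 (log2 fold change -1.40 ± 0.13, adjusted p = 4.8e-07). Gstm1 stood at 76.0 and 71.7 CPM with nt-shRNA and 41.9, 36.7 and 45.8 CPM with shRNA1 (log2 fold change -0.83 ± 0.09, adjusted p = 2e-06). The members lie in 1 cluster on chromosome 3 and resemble each other, and the direct contrast found all 7 lower with shRNA2 than with shRNA1.

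Claudins and keratins were among the lower families. Claudins, the strands of tight junctions, had 6 of 11 lower (median -0.49), or 3 without nt-shRNA replicate 1 and 3 without shRNA1 replicate 1, and keratins, the intermediate filaments of epithelia, 6 of 12 (median -0.50, or -0.31 without nt-shRNA replicate 2). Cldn7 stood at 59.9 and 55.5 CPM with nt-shRNA and 30.8, 30.9 and 37.9 CPM with shRNA1 (log2 fold change -0.79 ± 0.14, adjusted p = 0.00037). Krt19 stood at 60.6 and 67.8 CPM with nt-shRNA and 25.5, 29.9 and 42.2 CPM with shRNA1 (log2 fold change -0.97 ± 0.15, adjusted p = 6.1e-05). For both, shRNA1 replicate 3 was the highest of its group and below both controls. Annexins, which bind membranes with calcium, had 6 of 11 lower, or 4 without either control and 3 with library size scaling, with Anxa2 at 236 and 278 CPM with nt-shRNA and 106, 116 and 151 CPM with shRNA1 (log2 fold change -1.04 ± 0.12, adjusted p = 3.8e-06) and Anxa8 higher (0.94 ± 0.10, adjusted p = 1.8e-06).

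All 6 binding proteins of insulin-like growth factors were called, 4 lower and 2 higher. Igfbp4 stood at 19.1 and 34.3 CPM with nt-shRNA and 4.01, 3.90 and 7.67 CPM with shRNA1 (log2 fold change -2.33 ± 0.23, adjusted p = 5.8e-07), with controls far apart. Igfbp2 stood at 1008 and 1017 CPM with nt-shRNA and 478, 427 and 637 CPM with shRNA1 (log2 fold change -0.98 ± 0.13, adjusted p = 1.2e-05). The falls in these 2 genes were larger than the spread in either group. Igfbp3 (0.83 ± 0.12, adjusted p = 3e-05) and Igfbp7 (0.73 ± 0.18, adjusted p = 0.005) were higher, the latter not called without nt-shRNA replicate 2. Without nt-shRNA replicate 2 or shRNA1 replicate 1 there were 2 called lower. The FK506-binding prolyl isomerases had 1 of 14 higher and 10 lower, but 3 lower without nt-shRNA replicate 1, 6 without nt-shRNA replicate 2 or shRNA1 replicate 1 and 3 with library size scaling. Fkbp7 changed by -0.90 ± 0.15 (adjusted p = 0.0002).

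The OTU deubiquitinases had 6 of 8 higher, but 1 without nt-shRNA replicate 1 and 3 without nt-shRNA replicate 2 or shRNA1 replicate 2. Pramef genes, of the PRAME family of oocytes and early embryos, had 4 of 6 higher and 1 lower, the last call lost without either control library and with library size scaling. Both controls were under the filter's 0.455 CPM for 2 of the 6 Pramef genes, 1 of them called higher, and of the other 4 genes 3 were higher. Pramef8 stood at 23.9 and 22.8 CPM with nt-shRNA and 43.2, 41.2 and 40.6 CPM with shRNA1 (log2 fold change 0.84 ± 0.08, adjusted p = 3.2e-07) and Pramef25 changed by 1.65 ± 0.21 (adjusted p = 1.4e-05).

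By annotation, lincRNAs had 99 of 560 (17.7%) higher and 40 (7.14%) lower, against 13.8% and 17.1% of all genes, 70 of them past 2-fold upward and 9 downward. This is a class of low level, and under 1 CPM 17.0% of 305 lincRNAs were higher and 1.97% lower, against 11.7% and 3.01% of all genes under 1 CPM. Of the 99 higher, 52 had both controls under the filter's 0.455 CPM. Among the other 417 lincRNAs 47 were higher and 40 lower, against 2081 and 2981 of the 16256 such genes of all classes. The larger share of higher lincRNAs thus rests on genes that passed the filter through hairpin libraries alone. Without nt-shRNA replicate 1 there were 55 higher and 18 lower, and the lower count was 22 without nt-shRNA replicate 2 and 24 without shRNA1 replicate 2. Gm11290 stood at 1.80 and 1.53 CPM with nt-shRNA and 9.34, 12.5 and 7.84 CPM with shRNA1 (log2 fold change 2.56 ± 0.22, adjusted p = 1.4e-07). Gm27167 stood at 3.00 and 2.30 CPM with nt-shRNA and 9.34, 12.3 and 9.77 CPM with shRNA1 (log2 fold change 1.98 ± 0.17, adjusted p = 1.6e-07). The ranges of both lincRNAs were far apart between groups. Unprocessed pseudogenes, which include copies of the Zscan4 and other tandem clusters, had 24 of 77 (31.2%) higher and 5 lower (8 of the higher with both controls under that level), or 15 and 2 without nt-shRNA replicate 1, and 17 higher and 2 lower without shRNA1 replicate 1 or 2. Processed pseudogenes had 87 (11.3%) higher and 79 (10.3%) lower of 768, or 59 and 53 without nt-shRNA replicate 1 and 60 and 48 without nt-shRNA replicate 2. Of the 87 higher processed pseudogenes, 30 had both controls under the filter's 0.455 CPM. Antisense genes, whose fragments an unstranded count cannot tell from those of their partners, had 36 (6.75%) higher (17 of them with both controls under that level) and 26 (4.88%) lower of 533. These were 22 and 8 without nt-shRNA replicate 1, 23 and 14 without shRNA1 replicate 2, and the lower count was 17 without nt-shRNA replicate 2 and 15 without shRNA1 replicate 1.

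The 5 largest falls among genes of at least 1 CPM were in short RNAs that lack poly(A) tails, and their size depends on 1 control library. Gm22513, a small nuclear RNA, stood at 52.4 and 5.50 CPM with nt-shRNA and 0.857, 1.19 and 0.428 CPM with shRNA1 (log2 fold change -5.19 ± 0.65, adjusted p = 8.8e-06). Rny3, a Y RNA of the Ro particle, stood at 5.14 and 0.906 CPM with nt-shRNA and 0.135, 0.148 and 0.107 CPM with shRNA1 (log2 fold change -4.49 ± 0.66, adjusted p = 4.8e-05). Rnu12, the U12 RNA of the minor spliceosome, stood at 4.27 and 1.08 CPM with nt-shRNA and 0.180, 0.0987 and 0.107 CPM with shRNA1 (log2 fold change -4.32 ± 0.57, adjusted p = 1.5e-05). In all 3 nt-shRNA replicate 1 was several times above nt-shRNA replicate 2, which was itself above the shRNA1 libraries. The shRNA1 values of Rny3 and Rnu12 lie near the 0.107 to 0.148 CPM that 3 counts amount to in these libraries. Without nt-shRNA replicate 1 the changes were -2.79 ± 0.33, adjusted p = 1.5e-05 for Gm22513, -2.77 ± 0.55, adjusted p = 0.0019 for Rny3 and -3.03 ± 0.50, adjusted p = 0.00034 for Rnu12. The other 2 were Gm24407, a small nuclear RNA (-4.38 ± 0.63, adjusted p = 3.8e-05, or -2.40 ± 0.46, adjusted p = 0.0014 without that library), and the 5.8S ribosomal RNA n-R5-8s1 (-4.67 ± 0.61, adjusted p = 1.5e-05, or -2.45 ± 0.34, adjusted p = 6.5e-05).

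Across the 148 tested genes of small and ribosomal RNA classes, 33 (22.3%) were more than 2-fold higher in nt-shRNA replicate 1 than in replicate 2, against 0.814% of all genes. With both controls 35 were lower and 4 higher with shRNA1. Fewer were called in either direction without nt-shRNA replicate 1, and the higher calls were lost without nt-shRNA replicate 2. The median log2 fold change of the 148 was -0.27, or -0.10 without nt-shRNA replicate 1 and -0.42 without nt-shRNA replicate 2. Mitochondrial ribosomal RNA mt-Rnr1 stood at 632 and 319 CPM with nt-shRNA and 179.7, 186 and 149 CPM with shRNA1 (log2 fold change -1.47 ± 0.16, adjusted p = 2.2e-06), and without nt-shRNA replicate 1 its change was -0.90 ± 0.10, adjusted p = 4.8e-06. The mitochondrial messenger mt-Cytb, which encodes cytochrome b and is polyadenylated, was higher instead, at 584 and 688 CPM with nt-shRNA and 1303, 1223 and 1039 CPM with shRNA1 (log2 fold change 0.90 ± 0.10, adjusted p = 1.9e-06). Histone genes of the replication clusters, whose messages end in a stem-loop and not a poly(A) tail, had 17 of 31 lower and 0 higher (median -1.01, or -0.62 without nt-shRNA replicate 1), but 3 without nt-shRNA replicate 1, 6 under a stricter filter and 11 without shRNA1 replicate 1 or by DESeq2, and 10 of the 31 were over 2-fold higher in nt-shRNA replicate 1 than in replicate 2. Hist1h4d stood at 3.75 and 2.30 CPM with nt-shRNA and 0.767, 0.740 and 1.07 CPM with shRNA1 (log2 fold change -1.78 ± 0.28, adjusted p = 8.4e-05). The part that poly(A) selection of each library has in these values was not tested.

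**Figure D5:**
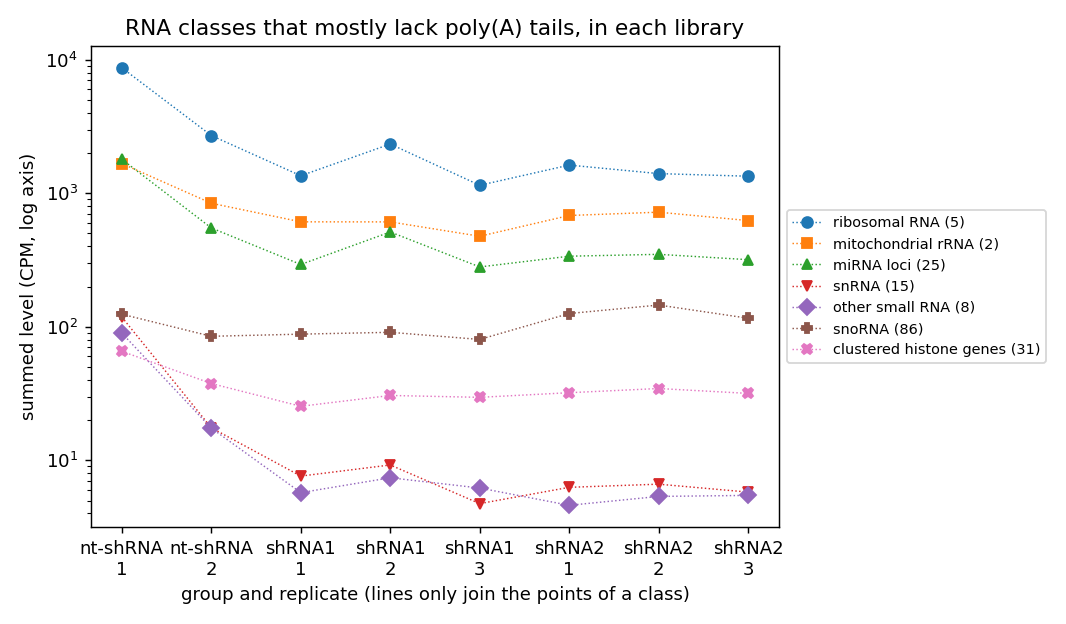
Summed level in CPM (vertical log axis) of the tested genes of 7 RNA classes, with their numbers in brackets, in each of the 8 libraries (horizontal axis). nt-shRNA replicate 1 is highest in every class but snoRNA, and nt-shRNA replicate 2 lies between it and the hairpin libraries in most classes.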

How the data were processed

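RNA from R1 mESCs carrying nt-shRNA, shRNA1 or shRNA2 was poly(A)-selected and sequenced. The authors aligned paired reads to GRCm38 (mm10) with STAR and counted fragments per gene over GENCODE release 24 exons with featureCounts 1.6.2, without strand and without fragments assigned to several places or genes, and deposited raw counts. The label of each column gives its hairpin and biological replicate, and p-values measure the spread between these cultures. Names and biotypes came from GENCODE release 21 (55144 of 55385 genes matched).

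Genes were filtered with filterByExpr (minimum count 10) and tested with edgeR 4.0.16 (TMM, glmQLFit, glmQLFTest; R 4.3.3, limma 3.58.1), with a coefficient per group over all 8 libraries, and Benjamini-Hochberg adjustment over 17445 genes (two-sided, threshold 0.05). Standard errors are the log2 fold change divided by the square root of F. Levels are CPM after TMM scaling, and 3 counts equal 0.104 to 0.148 CPM. Genes were named as the 12 with the smallest p-values and the 5 with the largest folds at a mean of at least 1 CPM in each direction, and the 2 leading called members of each list, family or biotype in each direction; others, such as Duxf3, Ddit3, Lin28a, Hspa1a, the genes with promoter matches and list members cited as background, were chosen after their values were seen. Families share a symbol stem and were described only where at least 50% of their tested members were called in 1 direction. The members and lists were chosen with earlier results of these data known, and lists are described by counts and medians with no test. Promoters are RefSeq windows of GRCm38.p6, compared with Biopython 1.88. Alternatives were library size scaling, DESeq2 1.42.0 (its size factors and its Wald test), no filter, a stricter filter (mean of at least 1 CPM), only the groups compared, gene length offsets, a replicate block and leaving out each library. Some items that the naming rule selects are not reported here.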

Additional observations from a re-analysis of the deposited data

How the results depend on the processing

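Counts of called genes moved most with the scaling and the controls. Scaled by library size alone, 4101 genes were higher and 1713 lower with shRNA1, against 2407 and 2981 with TMM, so 70.5% of calls were higher in place of 44.7%. Leaving out 1 library at a time gave 1239 to 2598 higher, 1709 to 3230 lower and 692 to 1004 past 2-fold in either direction, with the lowest of each without nt-shRNA replicate 1 and the highest without shRNA1 replicate 3, and the cause was not tested. The stricter filter, which tests fewer low genes, left 478 genes past 2-fold of 867, and the other alternatives kept these counts within 1.5 times. The Eftud2 change of -0.18 (adjusted p = 0.051) passed the threshold with gene length offsets (-0.22, adjusted p = 0.016), with these and the replicate block (-0.25, adjusted p = 0.0056), with no filter (-0.18, adjusted p = 0.03), with only the groups compared (-0.16, adjusted p = 0.048) and with the replicate block (-0.21, adjusted p = 0.021), and without 1 library it ran from -0.20 to -0.16. Deviations from the group means of shRNA1 and nt-shRNA libraries with the same replicate number had correlations of -0.03 and -0.02. With 2 controls their deviations mirror each other, and shRNA1 replicate 3 has no control of its number, so this check cannot exclude pairing. With the replicate block 2694 genes were higher and 3324 lower. Of 337 named genes, 55 lost their call without nt-shRNA replicate 1, 60 without nt-shRNA replicate 2 and 29 with library size scaling. Direction changed in 2 uncalled genes. Ctsd, at -0.03 with all libraries, had 0.07899 without nt-shRNA replicate 1, 0.0102 with gene length offsets, 0.03449 with these and the block and 0.08454 with library size scaling. Without nt-shRNA replicate 2 Ctsd kept its direction, at -0.1331. Hspe1, at -0.08 with all libraries, had 0.02457 with length offsets and the block and 0.03269 with library size scaling. Where a control is left out, the lone nt-shRNA library is assumed to vary like the other groups. Genes under about 1 CPM rest on few counts, and their fold changes have the widest errors.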
